A study of Mus musculus with 20 samples.

Results

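The genes of the sperm flagellum's axoneme were followed in whole testes of C57BL/6 and AKR/N mice after a short heat shock. The genes were chosen by symbol: dynein heavy chains (Dnah), radial spoke head homologues (Rsph), and cilia and flagella associated proteins (Cfap). Dynein regulatory complex subunits (Drc), tektins (Tekt), and the anchoring proteins Akap3 and Akap4 were taken too. The rule also took symbols of the Dnai form for dynein intermediate chains, but 0 genes carry one in the chip annotation. It found 50 genes of the 18193 with a probe set that reads 1 gene, and 47 of the 50 were bright enough to be tested among 15762 genes. Cfap47, Dnah17 and Rsph4a stayed under the limit for dim genes in every group, so only a bound of about that limit, a signal of 17.5, can be given for them. Dnah11 reached the limit through 1 group only, AKR/N at 24 h, so its tests carry no information and none is read here. It stays in the counts and medians of the 47 genes. RNA was taken from testes of 8-week-old mice and measured on the Affymetrix 430 2.0 array, where sets of short probes report each transcript. Each strain had unheated controls and testes taken 8, 10, 12 or 24 h after 15 min at 43 °C, which makes 10 groups with 2 arrays each, 20 arrays in all. The controls carry no sampling time, so heat and time of sampling cannot be told apart against them. The labels name no separate animals or pools for the 2 arrays, so a p-value here measures the spread between these arrays, which may be technical.

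The axoneme is the motile core of the flagellum, a ring of doublet microtubules around a central pair. Dynein arms on each doublet pull on the next one. Outer arms supply much of the power, inner arms shape the bend, and radial spokes and the nexin-dynein regulatory complex pass control from the central pair to the arms. In the testis these parts are made for the sperm tail, which is assembled in spermatids, and many of the genes are already transcribed in spermatocytes. Akap3 and Akap4 are not part of the axoneme itself. They build the fibrous sheath that wraps the principal piece of the tail and bind protein kinase A there.

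A change is the log2 difference between 2 group means of log2(signal + 16), with the standard error (SE) of a limma model over all arrays, and a fold on this scale understates the change of dim genes. Adjusted p-values come from that model, corrected by Benjamini and Hochberg's procedure across 15762 genes, and a gene is said to have risen or fallen where its adjusted p was under 0.05. The median signal of an array was 24.9 to 34.9, and the r of 2 replicate arrays over genes, which are not independent replicates, was 0.970 to 0.988. Beta-actin's 3'/5' signal ratio, by which RNA quality is judged, was 1.87 to 3.57 and highest in C57BL/6 12 h replicate 2. In C57BL/6 it was 2.84 and 2.58 at 24 h, above the 2.14 and 2.46 of the controls, and that of Gapdh was 1.40 and 1.19 against 1.04 and 1.08. In AKR/N the beta-actin ratio was 2.14 and 2.17 at 24 h, below the 2.92 and 2.39 of the controls, and that of Gapdh was 1.05 and 0.993 against 1.32 and 1.19. The part of RNA quality in the changes at 24 h was not tested. All 14 markers of elongating spermatids passed the limit for dim genes. Because whole testes were measured, fewer cells of a type and less RNA per cell cannot be told apart.

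RefSeq promoter windows on GRCm38.p6 were at hand for 42 of the 50 genes, and the 250 bases before the start were searched on both strands for short motifs, chosen after the values were seen. Half-sites of the X-box that RFX factors bind at ciliary genes (GTTGCC, or GGCAAC on the other strand) were in 9 of the 42 windows, or 21.4%, against 11.8% of 27025 genes. Of the 9, all but Cfap20dc and Tekt2 fell at some time after heat, as did 31 of the 47 axoneme genes tested. The share of all genes that fell at any time was not computed, so these counts only describe the axoneme genes. The letters AACTGNC, a site of MYB factors, were in 10 windows (23.8%, against 12.1% of all genes), and the CRE core TGACGT in 2 (4.76%, against 7.29%). The heat shock element pair GAANNTTC was in 3 windows (7.14%, against 7.73%), those of Dnah1, Dnah7a and Drc1, and TTCNNGAA in 2 (4.76%, against 8.11%), those of Cfap52 and Tekt2. These matches describe letters, not sites in use. The windows below are 100 bases each, 5′ to 3′ along the gene, with the half-site in capitals. They set genes with the half-site that fell (Cfap20, Cfap298, Cfap300) beside genes with it that were never called (Cfap20dc, Tekt2). Only windows outside their gene's annotated span are printed, and those of Cfap161, Dnah7a, Drc1 and Tekt1, which have the half-site and also fell, are not. The windows of Dnah2, which had the largest fall, and of Akap4, which rose, end at the base before the start and hold no half-site.
Cfap20: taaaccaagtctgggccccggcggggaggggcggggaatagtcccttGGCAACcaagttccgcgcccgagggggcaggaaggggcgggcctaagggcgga
Cfap298: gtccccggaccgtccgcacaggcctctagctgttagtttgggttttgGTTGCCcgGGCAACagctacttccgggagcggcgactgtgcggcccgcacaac
Cfap300: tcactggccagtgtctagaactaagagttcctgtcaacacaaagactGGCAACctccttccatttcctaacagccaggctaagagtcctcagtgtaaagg
Cfap20dc: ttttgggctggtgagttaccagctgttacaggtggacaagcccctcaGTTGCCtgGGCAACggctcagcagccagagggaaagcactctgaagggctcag
Tekt2: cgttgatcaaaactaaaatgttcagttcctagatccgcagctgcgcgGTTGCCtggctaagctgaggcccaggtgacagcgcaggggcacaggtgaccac
Dnah2: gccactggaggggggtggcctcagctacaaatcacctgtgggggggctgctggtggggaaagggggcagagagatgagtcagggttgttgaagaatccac
Akap4: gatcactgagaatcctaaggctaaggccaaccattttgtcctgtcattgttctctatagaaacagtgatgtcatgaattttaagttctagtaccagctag
They lie at chr8:95434911-95435010 on the minus strand (Cfap20), chr16:90934985-90935084 on the minus strand (Cfap298), chr9:8042945-8043044 on the minus strand (Cfap300), chr14:8666340-8666439 on the minus strand (Cfap20dc), chr4:126325732-126325831 on the minus strand (Tekt2), chr11:69549109-69549208 on the minus strand (Dnah2) and chrX:7067415-7067514 on the plus strand (Akap4), each outside the annotated span of its own gene. The half-sites of Cfap298 and Cfap20dc are paired in opposite orientations 2 bases apart, the form in which the X-box is usually drawn.

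The comparison of each time with the controls of the same strain asked when the axoneme genes change after heat. At 8 h, 0 of the 47 genes were called by limma in either strain, with 1 gene at an unadjusted p under 0.05 in C57BL/6 and 2 in AKR/N, where 0.0888% of all genes were called in C57BL/6 (0% lower) and 0.0381% in AKR/N (0.0254% higher and 0.0127% lower). At 10 h in C57BL/6, 8 genes had fallen and 0 had risen, where 11.2% of all genes were called (5.19% lower and 6% higher). At 12 h 20 had fallen and 0 had risen, where 19.1% were called (9.38% lower and 9.71% higher), and at 24 h 30 had fallen and 3 had risen, where 38% were called (16.6% lower and 21.4% higher). In AKR/N, 0 genes fell and 1 rose at 10 h, where 2.63% of all genes were called (1.44% higher and 1.19% lower). At 12 h 4 had fallen and 0 had risen, where 7% were called (3.2% lower and 3.8% higher), and at 24 h 21 had fallen and 1 had risen, where 23.4% were called (11.1% lower and 12.3% higher). The median change of the 47 genes in C57BL/6 was 0.01, −0.22, −0.38 and −0.62 at 8, 10, 12 and 24 h, beside −0.02, −0.00, 0.06 and 0.08 for all genes tested. In AKR/N it was 0.01, −0.07, −0.20 and −0.38, beside −0.05, −0.03, −0.01 and −0.01 for all genes.

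All 8 genes that had fallen at 10 h in C57BL/6 had also fallen at 12 and 24 h. They are the dynein heavy chains Dnah2 and Dnah7a, the spoke head gene Rsph1, the central pair gene Cfap65, Cfap20 and Cfap161 of the doublet lumen, the dynein assembly gene Cfap298, and Cfap299. The 20 genes that had fallen at 12 h were still lower at 24 h by the same call. In AKR/N the first to fall were Cfap65, Cfap70, Dnah2 and Dnah12 at 12 h, all 4 of which had fallen at 12 h in C57BL/6 too. At 24 h, 20 genes had fallen in both strains, 10 by the call in C57BL/6 only and Cfap206 in AKR/N only. A count of 35 of 47 was lower in both strains whatever the call. A fall of at least 1 on the log2 scale was called for 19 genes in C57BL/6 and for 3 in AKR/N (Cfap65, Dnah2 and Rsph6a). Shares of all genes lower in both strains, or with a called fall of this size, were not computed. These counts therefore only describe the 47 genes. The count at 10 h in C57BL/6 was 3 and 2 without 10 h replicate 1 or 2 and 1 and 2 without control replicate 1 or 2, and 5 with arrays centred on their medians, and that at 12 h was 11 without 12 h replicate 2 and 10 without control replicate 2. The count of 4 at 12 h in AKR/N was 1 without 12 h replicate 1, 2 without either AKR/N control array, 2 with AKR/N arrays alone and 9 with a pseudocount of 64. The count of 22 at 24 h in AKR/N was 5 without 24 h replicate 2, 12 and 7 without control replicate 1 or 2, 9 with arrays centred on their medians and 10 with AKR/N arrays alone.

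**Figure D1:**
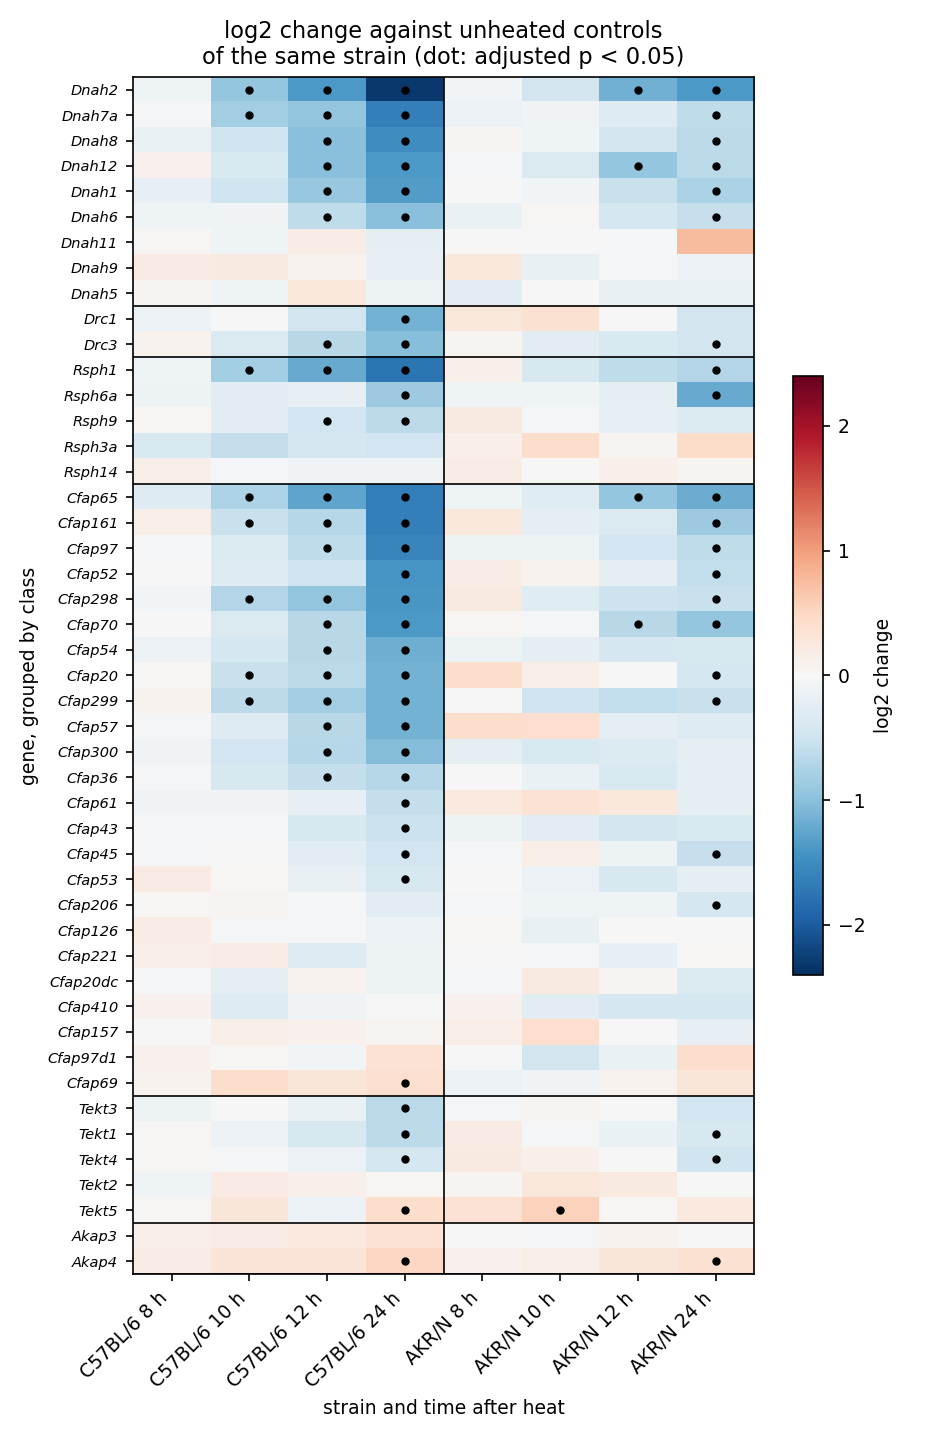
Log2 change of the 47 axoneme genes tested (rows, grouped by class) at each time after heat in each strain (columns), against unheated controls of the same strain, with a dot where the adjusted p was under 0.05. No dots stand at 8 h; in C57BL/6 they number 8, 20 and 33 at 10, 12 and 24 h, and in AKR/N 1, 4 and 22.

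Of the dynein heavy chains, the motor subunits of the arms, 6 of the 9 tested, Dnah11 included, fell at 24 h in each strain and 0 rose. All 5 inner arm heavy chains tested, Dnah1, Dnah2, Dnah6, Dnah7a and Dnah12, were among them in both strains. Their median change was −1.37 in C57BL/6 and −0.64 in AKR/N. Heavy chains without a probe set that reads 1 gene, such as Dnah7b and Dnah7c, were not tested. Dnah2 had the largest change of all 47 genes in each strain. The Dnah2 signal in C57BL/6 was 626 and 752 in the controls, 631 and 637 at 8 h, 352 and 351 at 10 h, 219 and 297 at 12 h and 126 and 125 at 24 h. The Dnah2 signal in AKR/N was 939 and 889.6 in the controls, 875 and 863 at 8 h, 536 and 826 at 10 h, 337 and 476 at 12 h and 374 and 311 at 24 h. From 10 h on, every heated array of C57BL/6 lay below both of its controls, and in AKR/N the same was true at every time. The change at 24 h was −2.31 (SE 0.21, adjusted p = 5.60e-06) in C57BL/6 and −1.38 (SE 0.21, adjusted p = 0.000807) in AKR/N, which leaves 20.2% and 38.4% of the control level of signal + 16. The other Dnah2 probe set was under the limit for dim genes and gives no reading.

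Dnah7a, an inner arm heavy chain with near-identical copies in the genome, stood apart at baseline. The Dnah7a signal in C57BL/6 was 247 and 221 in the controls, 205 and 257 at 8 h, 130.2 and 117 at 10 h, 128 and 101 at 12 h and 60.2 and 68.4 at 24 h. The Dnah7a signal in AKR/N was 56.8 and 42.1 in the controls, 40.7 and 44.8 at 8 h, 42.4 and 48.5 at 10 h, 36.6 and 37.1 at 12 h and 27.6 and 25.6 at 24 h. Every AKR/N array lay below every C57BL/6 array, and within each strain the arrays at 24 h lay below the controls. The change at 24 h was −1.64 (SE 0.15, adjusted p = 6.63e-06) in C57BL/6 and −0.61 (SE 0.15, adjusted p = 0.0112) in AKR/N. Because 1 probe set reads this gene and another set on the chip is annotated to Dnah7b and Dnah7c together, whether the probe set used also reads the copies was not tested. Dnah1 fell with a change of −1.35 in C57BL/6 and −0.76 in AKR/N, Dnah12 with −1.37 and −0.64, and Dnah6 with −0.99 and −0.55. Dnah12 in AKR/N was at an adjusted p of 0.0499, at the edge of the threshold.

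Among the outer arm heavy chains Dnah8, the form that sperm use, fell in both strains, and Dnah5 and Dnah9, which serve motile cilia of other tissues, were not called at any time. The array values of Dnah5, Dnah9 and Dnah11 were added after their values were seen. The Dnah8 signal in C57BL/6 was 2296 and 2728 in the controls, 2244 and 2209 at 8 h, 1823 and 1759 at 10 h, 1319 and 1160.2 at 12 h and 972 and 805 at 24 h. The Dnah8 signal in AKR/N was 2817 and 3032 in the controls, 3096 and 2997 at 8 h, 2389.7 and 3065 at 10 h, 1998 and 2295 at 12 h and 2096 and 1713 at 24 h. In C57BL/6 all heated arrays lay below both controls, and in AKR/N those at 12 and 24 h did. The change at 24 h was −1.48 (SE 0.16, adjusted p = 1.54e-05) in C57BL/6 and −0.62 (SE 0.16, adjusted p = 0.0127) in AKR/N. The Dnah9 signal was 185 and 164 in the C57BL/6 controls and 143 and 159.5 at 24 h, and 109.9 and 142 in the AKR/N controls and 125 and 102 at 24 h, so the AKR/N arrays overlapped. The Dnah5 signal was 29.5 and 35.6 in the C57BL/6 controls and 26.9 and 29.8 at 24 h, and 21.3 and 51.4 in the AKR/N controls and 32.0 and 26.1 at 24 h, with overlap in both strains. Changes at 24 h were −0.19 and −0.13 for Dnah9 and −0.13 and −0.16 for Dnah5, each given for C57BL/6 and then AKR/N. Dnah11, also of motile cilia elsewhere, had a signal of 7.28 and 18.5 in the C57BL/6 controls and 14.1 and 3.04 at 24 h, and 12.2 and 6.48 in the AKR/N controls and 25.5 and 28.0 at 24 h. Its group means were under the limit for dim genes in both controls and in all groups but AKR/N at 24 h, so a fall could not have been seen and no change is given. Dnah17, the other sperm form, was the dim gene named above.

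Dynein intermediate chains, which tie the heavy chains to the doublet, are listed on this chip under older symbols that the rule does not take, and were added after their values were seen. Dnaic1 and Dnaic2, which RefSeq also names Dnai1 and Dnai2, are the outer arm chains. At 24 h Dnaic1 fell with a change of −1.04 in C57BL/6 and −0.54 in AKR/N, and Dnaic2 with −2.33 and −1.36. Wdr63, an inner arm chain, fell with −1.69 and −0.70. Wdr78, another inner arm chain, fell in C57BL/6 with −1.41 and had −0.58 in AKR/N, which was not called (adjusted p = 0.0867).

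Both subunits tested of the nexin-dynein regulatory complex, which links neighbouring doublets, fell in C57BL/6 at 24 h and 1 of them in AKR/N. The Drc3 signal was 617 and 632 in the C57BL/6 controls and 287 and 312 at 24 h, and 451 and 428 in the AKR/N controls and 350.5 and 295 at 24 h, with no overlap in either strain. Its change was −1.02 (SE 0.13, adjusted p = 6.69e-05) in C57BL/6 and −0.43 (SE 0.13, adjusted p = 0.0317) in AKR/N, and its other probe set gave −0.93 and −0.78. The Drc1 signal was 442 and 557 in the C57BL/6 controls and 186 and 256 at 24 h, and 452 and 603 in the AKR/N controls and 418 and 344 at 24 h. Its change was −1.13 (SE 0.20, adjusted p = 0.000650) in C57BL/6 and −0.44 (SE 0.20, adjusted p = 0.128) in AKR/N, so that the AKR/N difference was not called although the arrays did not overlap.

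Radial spokes carry signals from the central pair to the dynein arms. Of the 5 radial spoke genes tested, Rsph1, Rsph6a and Rsph9, all of the spoke head, fell in C57BL/6 at 24 h, and Rsph1 and Rsph6a in AKR/N. The Rsph1 signal in C57BL/6 was 4786 and 4819 in the controls, 4309 and 4644 at 8 h, 2857 and 2606 at 10 h, 2463 and 1717 at 12 h and 1306 and 1537 at 24 h. The Rsph1 signal in AKR/N was 4263 and 4921 in the controls, 4936 and 4991 at 8 h, 3102 and 4005 at 10 h, 2678 and 3335 at 12 h and 2994 and 2646 at 24 h. In C57BL/6 every array from 8 h on lay below both controls, whereas in AKR/N only the arrays of 10, 12 and 24 h did. The change at 24 h was −1.75 (SE 0.18, adjusted p = 1.37e-05) in C57BL/6 and −0.70 (SE 0.18, adjusted p = 0.0144) in AKR/N. The Rsph6a signal in C57BL/6 was 585 and 648 in the controls, 584 and 551 at 8 h, 445 and 597 at 10 h, 468 and 616 at 12 h and 325 and 337 at 24 h. The Rsph6a signal in AKR/N was 967 and 855 in the controls, 792 and 894 at 8 h, 837 and 862 at 10 h, 799.7 and 742 at 12 h and 485 and 306 at 24 h. Rsph6a, the spoke head protein of sperm, was called against the controls at 24 h and at no earlier time. It was 1 of the 3 genes with a called fall in both strains whose change was larger in AKR/N, with −0.86 (SE 0.20, adjusted p = 0.00364) in C57BL/6 and −1.20 (SE 0.20, adjusted p = 0.00130) in AKR/N. Rsph9 signal was 936 and 960.1 in the C57BL/6 controls and 563 and 659 at 24 h, and 651 and 831 in the AKR/N controls and 647 and 524 at 24 h, with a change of −0.62 (SE 0.14, adjusted p = 0.00373) in C57BL/6 and −0.33 (SE 0.14, adjusted p = 0.115) in AKR/N.

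The remaining radial spoke genes were not called at any time. The Rsph14 signal, added after its values were seen, was 258 and 233 in the C57BL/6 controls and 211 and 249 at 24 h, and 188 and 245 in the AKR/N controls and 227 and 223 at 24 h, with overlap in both strains. Rsph3a, of the spoke stalk, had a change of −0.47 (SE 0.24, adjusted p = 0.148) in C57BL/6 and of 0.45 (SE 0.24, adjusted p = 0.199) in AKR/N, neither called. A probe set annotated to Rsph3b and Rsph3a together was not used here.

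Of the 24 Cfap genes tested, 16 fell and 1 rose at 24 h in C57BL/6, and 10 fell and 0 rose in AKR/N. Those of the central pair, the shaft that the spokes touch, had 3 of 5 fallen and 1 risen in C57BL/6 and 2 of 5 fallen in AKR/N. The Cfap65 signal in C57BL/6 was 561 and 583 in the controls, 434 and 488 at 8 h, 344 and 330.0 at 10 h, 219.7 and 238 at 12 h and 173 and 165 at 24 h. The Cfap65 signal in AKR/N was 679.6 and 709 in the controls, 646 and 645 at 8 h, 519 and 615 at 10 h, 344 and 373 at 12 h and 318 and 271 at 24 h. Every heated array lay below both controls of its strain, already at 8 h, where the adjusted p was 0.568 in C57BL/6 and 0.811 in AKR/N. Cfap65 had a change at 24 h of −1.67 (SE 0.12, adjusted p = 1.94e-06) in C57BL/6 and −1.20 (SE 0.12, adjusted p = 0.000145) in AKR/N. The Cfap70 signal was 618 and 759 in the C57BL/6 controls and 253 and 257 at 24 h, and 727 and 775 in the AKR/N controls and 398 and 377 at 24 h, with a change of −1.37 (SE 0.14, adjusted p = 1.20e-05) in C57BL/6 and −0.93 (SE 0.14, adjusted p = 0.000834) in AKR/N. Cfap54 fell in C57BL/6 with −1.17 and had −0.38 in AKR/N, which was not called. Cfap221 had −0.12 and 0.02 and was not called at any time.

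Cfap69, also of the central pair, went the other way. The Cfap69 signal in C57BL/6 was 1697 and 1750.5 in the controls, 1793 and 1858 at 8 h, 2391 and 2238 at 10 h, 2208 and 2013 at 12 h and 2242 and 2288 at 24 h. The Cfap69 signal in AKR/N was 1638 and 1832 in the controls, 1684 and 1454 at 8 h, 1437 and 1878 at 10 h, 1831 and 1851 at 12 h and 2132 and 2139.6 at 24 h. In C57BL/6 all heated arrays lay above both controls, and in AKR/N those of 24 h did. The change at 24 h was 0.39 (SE 0.13, adjusted p = 0.0327) in C57BL/6 and 0.30 (SE 0.13, adjusted p = 0.122) in AKR/N. Its 2 other probe sets gave 0.05 and 0.02 in C57BL/6, and with arrays centred on their medians the C57BL/6 change was 0.27 and was not called.

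Proteins inside the doublet microtubules brace their walls. All 5 genes grouped under this heading here, Cfap20, Cfap45, Cfap52, Cfap53 and Cfap161, fell at 24 h in C57BL/6 and all but Cfap53 in AKR/N. The grouping is not complete, and it leaves out Cfap126 and the tektins, which are given below. The Cfap161 signal was 1194 and 1214 in the C57BL/6 controls and 365 and 382 at 24 h, and 1004 and 1178 in the AKR/N controls and 675 and 504 at 24 h, with a change of −1.65 (SE 0.15, adjusted p = 6.98e-06) in C57BL/6 and −0.88 (SE 0.15, adjusted p = 0.00183) in AKR/N. Changes of the other members were −1.41 and −0.60 for Cfap52, −1.14 and −0.42 for Cfap20, and −0.46 and −0.55 for Cfap45, in C57BL/6 and AKR/N. Cfap53 fell in C57BL/6 with −0.38 and had −0.22 in AKR/N. Both genes for assembly of the dynein arms fell in C57BL/6, Cfap298 with −1.40 and Cfap300 with −1.03. In AKR/N Cfap298 fell with −0.53 and Cfap300 had −0.23, which was not called.

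Of the 4 genes for proteins at the bases of the arms and spokes, 3 fell in C57BL/6 and 1 in AKR/N. In C57BL/6 Cfap57, Cfap61 and Cfap43 fell with −1.14, −0.58 and −0.52, and none of the 3 was called in AKR/N, where they had −0.31, −0.21 and −0.36. Cfap206 had −0.26 (SE 0.13, adjusted p = 0.136) in C57BL/6 and fell in AKR/N with −0.42 (SE 0.13, adjusted p = 0.0350). Among 8 Cfap genes given no role here, Cfap97, Cfap299 and Cfap36 fell in C57BL/6 with −1.59, −1.14 and −0.69. Cfap97 and Cfap299 also fell in AKR/N with −0.61 and −0.54, and Cfap36 had −0.24 there. The other 5, Cfap126, Cfap157, Cfap20dc, Cfap410 and Cfap97d1, were not called against controls at any time, with changes at 24 h from −0.13 for Cfap126 to 0.35 for Cfap97d1 in C57BL/6 and from −0.42 for Cfap410 to 0.43 for Cfap97d1 in AKR/N.

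Tektins, filament proteins of the doublets, had 3 of 5 genes fallen and 1 risen at 24 h in C57BL/6 and 2 of 5 fallen in AKR/N. The Tekt1 signal in C57BL/6 was 2132 and 2166 in the controls, 2193 and 2184 at 8 h, 1991 and 1893 at 10 h, 1693 and 1605 at 12 h and 1252 and 1544 at 24 h. The Tekt1 signal in AKR/N was 1603 and 1911 in the controls, 2013 and 1992 at 8 h, 1652 and 1785 at 10 h, 1510.4 and 1612 at 12 h and 1411 and 1272 at 24 h. The arrays of 24 h lay below the controls in both strains, and the change was −0.62 (SE 0.13, adjusted p = 0.00175) in C57BL/6 and −0.38 (SE 0.13, adjusted p = 0.0448) in AKR/N. The Tekt3 signal was 862 and 1081 in the C57BL/6 controls and 580.1 and 638 at 24 h, and 753 and 941 in the AKR/N controls and 670.4 and 548 at 24 h, with a change of −0.65 (SE 0.17, adjusted p = 0.00933) in C57BL/6 and −0.46 (SE 0.17, adjusted p = 0.0705) in AKR/N. Tekt4 fell in both strains with −0.43 and −0.48. Tekt2, with array values added after they were seen, was not called, with signals of 2097 and 2170.3 in the C57BL/6 controls and 2162 and 2267 at 24 h, and 1543 and 1862 in the AKR/N controls and 1675 and 1702 at 24 h, and changes of 0.05 and −0.01.

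Tekt5 was the tektin that rose. The Tekt5 signal in C57BL/6 was 458 and 469.6 in the controls, 486 and 460.2 at 8 h, 569.9 and 577 at 10 h, 419.9 and 414 at 12 h and 612 and 649 at 24 h. The Tekt5 signal in AKR/N was 372 and 409 in the controls, 492 and 513 at 8 h, 619 and 537 at 10 h, 368 and 439.7 at 12 h and 479 and 449 at 24 h. Its arrays were above the controls at 10 and 24 h in both strains and at 8 h in AKR/N, and at 12 h both C57BL/6 arrays lay below their controls. The rise at 10 h in AKR/N was 0.54 (SE 0.12, adjusted p = 0.0316) and the only call of that comparison, and it was lost without either 10 h or either control array of AKR/N. In C57BL/6 the change was 0.30 (SE 0.12, adjusted p = 0.124) at 10 h, which was not called, and 0.43 (SE 0.12, adjusted p = 0.0107) at 24 h. With arrays centred on their medians the C57BL/6 change at 24 h was 0.31 and was not called.

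Akap4, the main protein of the fibrous sheath, rose at 24 h in both strains, and Akap3, its partner in the sheath, was not called. The Akap4 signal in C57BL/6 was 5247 and 5448 in the controls, 5886 and 6189 at 8 h, 6673 and 6664 at 10 h, 7021 and 6246 at 12 h and 7334 and 7779 at 24 h. The Akap4 signal in AKR/N was 4563 and 5575 in the controls, 5559 and 5245 at 8 h, 5217 and 5946 at 10 h, 6281 and 6138 at 12 h and 6604 and 6325 at 24 h. In C57BL/6 every heated array lay above both controls. In AKR/N the controls spanned the arrays of 8 h, and those of 12 and 24 h lay above both. The change at 24 h was 0.50 (SE 0.12, adjusted p = 0.00583) in C57BL/6 and 0.36 (SE 0.12, adjusted p = 0.0499) in AKR/N, the latter at the edge of the threshold. The 2 other Akap4 probe sets gave 0.55 and 0.55 in C57BL/6 and 0.32 and 0.49 in AKR/N. With arrays centred on their medians the changes were 0.38 and 0.37 and neither was called, and 21 of the 28 alternatives tried lost the AKR/N call. The Akap3 signal in C57BL/6 was 6609 and 7176 in the controls, 8396 and 6617 at 8 h, 7678 and 8009 at 10 h, 7901 and 8423 at 12 h and 8905 and 8688 at 24 h. The Akap3 signal in AKR/N was 5298 and 5416 in the controls, 5121 and 5489 at 8 h, 5434 and 4962 at 10 h, 5149.6 and 6194 at 12 h and 5218 and 5504 at 24 h. The change of Akap3 at 24 h was 0.35 (SE 0.13, adjusted p = 0.0517) in C57BL/6 and 0.00 (SE 0.13, adjusted p = 0.999) in AKR/N, with no overlap of the arrays in C57BL/6 and overlap in AKR/N.

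**Figure D2:**
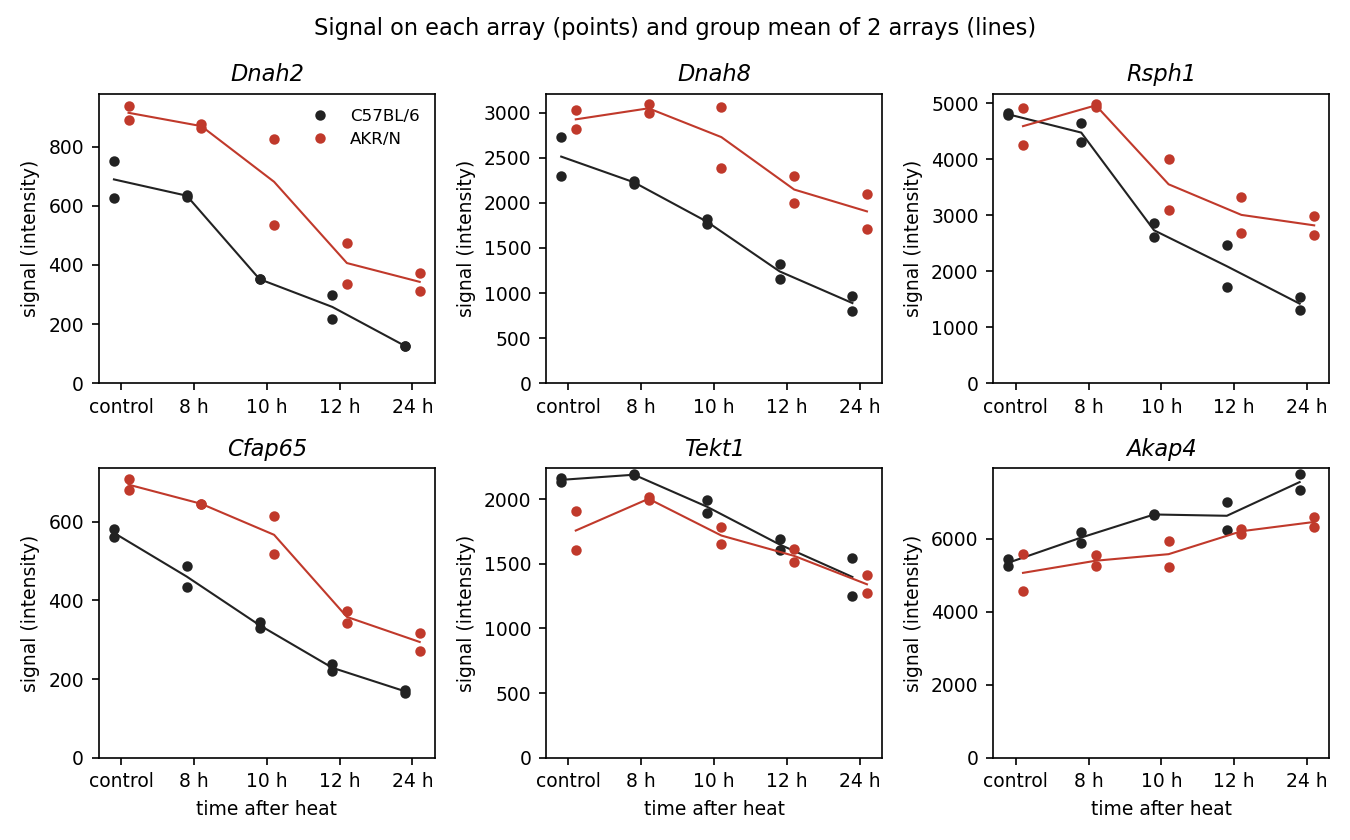
Signal (intensity) on each array of 6 axoneme and sheath genes by time after heat, with points for arrays and lines through the means of 2 arrays, in C57BL/6 (black) and AKR/N (red). Dnah2, Dnah8, Rsph1, Cfap65 and Tekt1 are lowest at 24 h in both strains, and Akap4 is highest at 24 h.

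Whether the genes went on changing late was asked by comparing 24 h with 12 h, a comparison that does not use the controls. In C57BL/6, 10 genes fell and Tekt5 rose, where 9.61% of all genes were called (3.99% lower and 5.62% higher). All 10 had also fallen against the controls at 24 h. Cfap161 changed by −0.97 (SE 0.15, adjusted p = 0.00362) between these times, Cfap97 by −0.98 (SE 0.17, adjusted p = 0.00511) and Dnah2 by −0.93 (SE 0.21, adjusted p = 0.0141). Cfap52, Cfap70, Dnah7a, Drc1, Rsph6a, Cfap54 and Cfap20 had changes from −0.94 to −0.50. In AKR/N 2 genes fell, Rsph6a with −0.97 (SE 0.20, adjusted p = 0.00999) and Cfap161 with −0.53 (SE 0.15, adjusted p = 0.0448), and Cfap97d1 rose with 0.58 (SE 0.15, adjusted p = 0.0299), where 10.1% of all genes were called (3.89% lower and 6.19% higher). The median change was −0.36 in C57BL/6 and −0.10 in AKR/N, beside 0.01 and −0.03 for all genes. The C57BL/6 count of 11 was 2 without 24 h replicate 1, 5 without 24 h replicate 2 and 5 without 12 h replicate 2. It was 7 without 12 h replicate 1, any C57BL/6 control array or any array of 8 h, with median centring, or with C57BL/6 arrays alone. The AKR/N count of 3 was 0 without 12 h replicate 1 or without 24 h replicate 2, 1 with AKR/N arrays alone and 6 with a pseudocount of 64.

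The strains were first compared without heat. Of the 47 genes, 3 differed between the controls, 1 higher and 2 lower in AKR/N, where 6.29% of all genes were called (3.1% higher and 3.19% lower). Dnah7a was lower in AKR/N by the change −1.94 (SE 0.15, adjusted p = 2.81e-06), with the signals given above. This difference rests on 1 probe set, and whether that probe set reads both strains alike was not tested. Drc3 was lower with −0.49 (SE 0.13, adjusted p = 0.0425). Dnah6 was higher, with a signal of 468 and 472 in AKR/N and 252 and 336 in C57BL/6 and a difference of 0.66 (SE 0.17, adjusted p = 0.0298). The median difference was −0.08, beside 0.06 for all genes. Only Dnah7a kept its call when either AKR/N control array or C57BL/6 control replicate 1 was left out, or with arrays centred on their medians.

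The effect of heat was then compared between strains by an interaction term, the AKR/N change minus the C57BL/6 change. At 24 h the term was called for 1 gene, Dnah7a, with 1.03 (SE 0.21, adjusted p = 0.0338), where 1.76% of all genes were called (0.939% higher and 0.818% lower). It was positive, a smaller fall or larger rise in AKR/N, for 34 of the 47 genes, beside 43.6% of all genes. The median term was 0.37 beside −0.07. The 34 include Dnah11, whose term is not read because only its AKR/N group at 24 h reached the limit for dim genes. An unadjusted p under 0.05 was reached by 20 genes. Counts by unadjusted p, here and at other times, are given without a share of all genes and are not read as a result. The next smallest adjusted p-values were those of Rsph1, with 1.05 (SE 0.26, adjusted p = 0.0547), Cfap97 with 0.98 (SE 0.24, adjusted p = 0.0554) and Cfap298 with 0.87 (SE 0.22, adjusted p = 0.0592), none of them called. Of the 20 genes that had fallen in both strains, 17 had the larger change in C57BL/6, and Cfap45, Rsph6a and Tekt4 had it in AKR/N. The matching share of all genes that fell in both strains was not computed, so this count only describes these 20 genes. At 8, 10 and 12 h 0 of the 47 genes were called by limma, with 0, 7 and 4 at an unadjusted p under 0.05, where 0%, 0.0317% (0.0127% higher and 0.019% lower) and 0% of all genes were called. The term at 24 h was called for 0 genes with arrays centred on their medians, with a pseudocount of 1, with the replicate number as a block, or without any array of 24 h C57BL/6, either strain's controls, AKR/N at 8 h, or AKR/N 24 h replicate 1. It was called for 9 with a pseudocount of 64, for 3 with quantile normalization or the mean of a gene's probe sets, and for 3 without either C57BL/6 array of 12 h. It was called for 5 without either AKR/N array of 10 h.

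**Figure D3:**
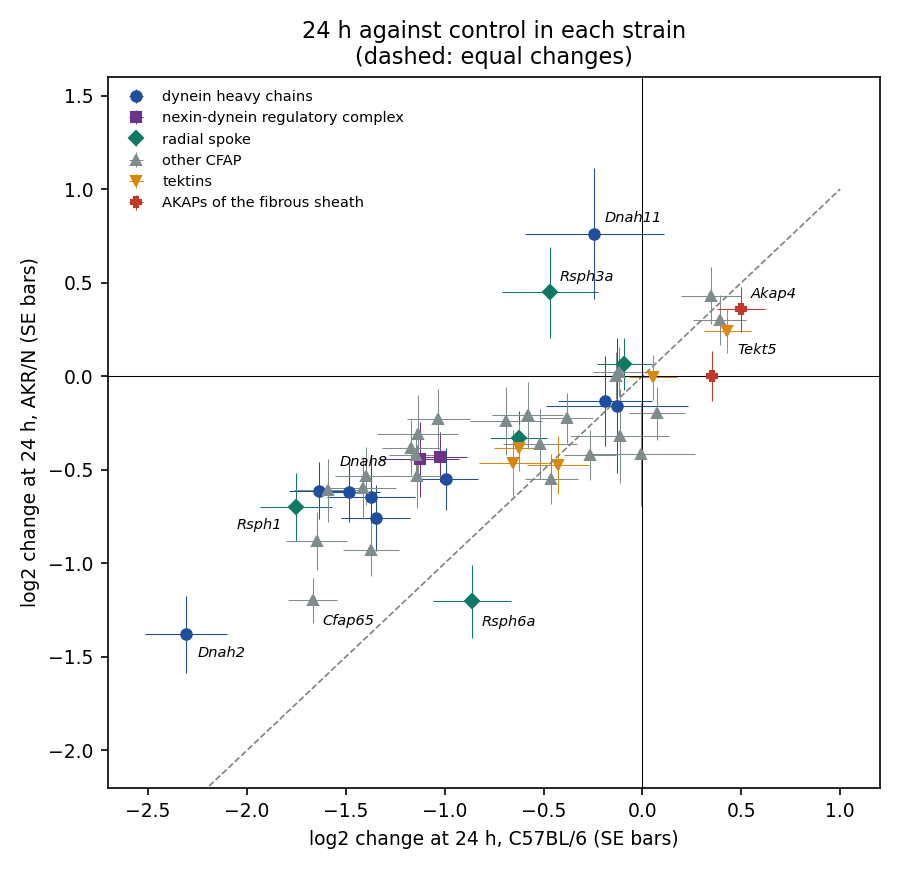
Log2 change at 24 h against control in C57BL/6 (x axis) and AKR/N (y axis) for each of the 47 genes, with SE bars and symbols by class; the dashed line marks equal changes. Dnah2 is lowest in both strains (−2.31 and −1.38), 17 of the 20 genes that fell in both lie above the line, and Akap4 is higher in both (0.50 and 0.36). For all genes that fell in both strains, the share above the line was not computed. The point of Dnah11, under the limit for dim genes in all groups but AKR/N at 24 h, gives no reading.

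More than 1 probe set reads 20 of the 50 genes, and their changes at 24 h were compared. In C57BL/6, the 14 called genes with another probe set above the limit for dim genes had 19 such probe sets. All 19 had the same sign as the probe set used, and 11 had at least 0.5 of its change. In AKR/N, 9 of 11 other probe sets of 9 called genes had the same sign and 6 had at least 0.5 of the change. Both exceptions were those of Cfap97, which gave 0.34 and 0.26 in AKR/N, and −0.97 and −0.17 in C57BL/6. Dnah8 was read with −0.48 and −0.24 by its other probe set and Dnah1 with −0.46 and −0.49, in C57BL/6 and AKR/N. Cfap61, called in C57BL/6 only, had −0.14 and −0.54 in C57BL/6 and −1.26 and −0.42 in AKR/N on its other probe sets.

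**Figure D4:**
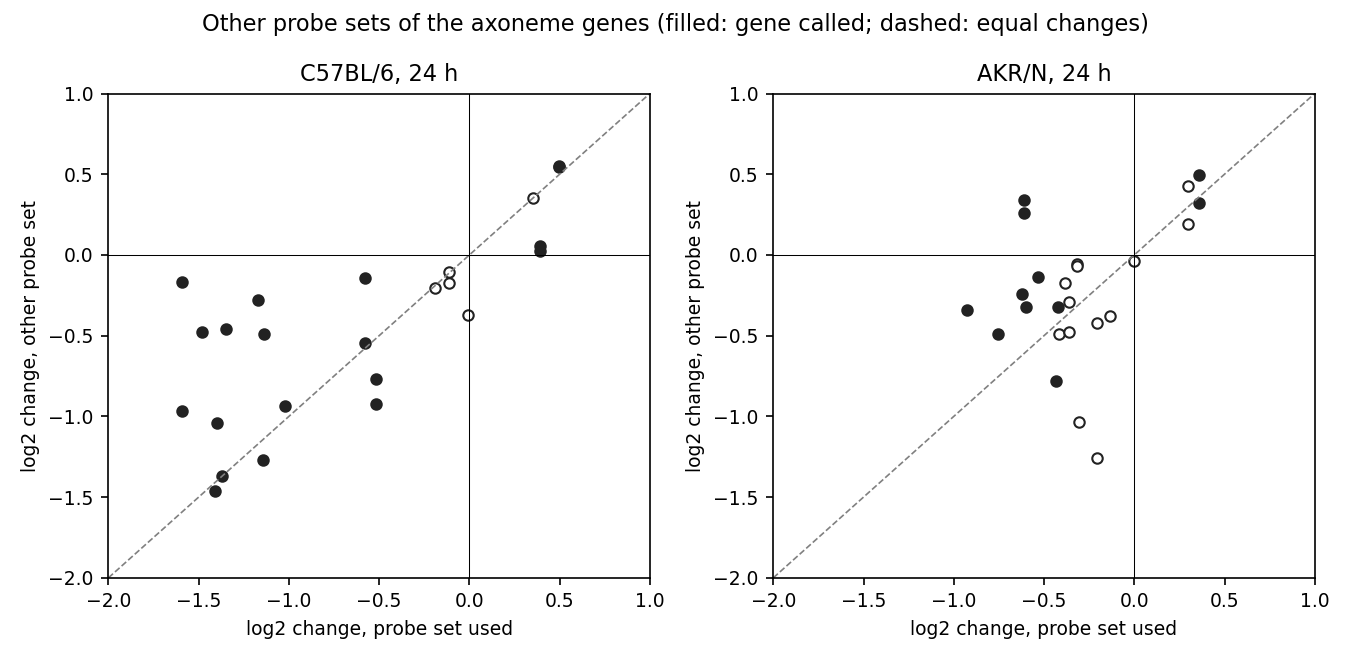
Log2 change at 24 h of the probe set used (x axis) and of each other probe set of the same gene above the limit for dim genes (y axis), in C57BL/6 (left) and AKR/N (right); filled points are called genes and the dashed line marks equal changes. All 19 filled points at left share the sign of the probe set used, and at right 2 of 11, both of Cfap97, do not.

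Other genes of the flagellum were counted from lists beside the axoneme genes. Among all genes at 24 h, 16.6% were lower and 21.4% higher in C57BL/6, and 11.1% lower and 12.3% higher in AKR/N. The median changes of all genes are given above. Among genes for docking and assembly of the outer arm, 16 of 19 fell and 0 rose at 24 h in C57BL/6 and 8 of 19 fell in AKR/N, with median changes of −1.19 and −0.52. They include Zmynd10, a factor for assembly of dynein arms, with −1.76 (SE 0.15, adjusted p = 5.10e-06) in C57BL/6 and −1.14 (SE 0.15, adjusted p = 0.000451) in AKR/N. Dnaaf6, another assembly factor, fell in C57BL/6 with −1.76 and had −0.51 in AKR/N, which was not called, and the dynein light chain Dynlrb2 fell with −1.25 and −0.62. Among genes of the central pair and of the ruler that spaces the arms, 16 of 29 fell and 1 rose in C57BL/6, and 9 fell and 1 rose in AKR/N. Spag6l of the central pair fell with −1.90 (SE 0.14, adjusted p = 1.79e-06) in C57BL/6 and −0.75 (SE 0.14, adjusted p = 0.00221) in AKR/N. Lrrc23 of the spokes fell with −1.80 and −0.82 and Ccdc40 of the ruler with −1.80 and −1.05. Of 35 genes for intraflagellar and manchette transport, which carry tail proteins to their place, 20 fell and 4 rose in C57BL/6, and 8 fell and 3 rose in AKR/N. Ift140 fell with −1.54 and −0.94, Ift43 with −1.07 and −0.73 and Ift80 with −0.82 and −0.48.

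Genes listed here under the outer dense fibres, fibrous sheath and sperm ion channels, not all of them known to act only there, had 5 of 27 fallen and 7 risen in C57BL/6, where 16.6% of all genes were lower and 21.4% higher, and 5 fallen and 1 risen in AKR/N, where 11.1% were lower and 12.3% higher. Their median change was 0.15 and −0.14, beside 0.08 and −0.01 for all genes. Ccdc38 fell with −1.81 and −1.26 and Spag5 with −1.25 and −0.73, whereas Catsper1, a subunit of the calcium channel of the tail, rose in C57BL/6 with 0.76 and had −0.12 in AKR/N. Of 18 transcription factors of ciliary and spermatid genes, 8 fell and 4 rose in C57BL/6, and 3 fell and 3 rose in AKR/N. Rfx4 fell in C57BL/6 with −1.29 (SE 0.17, adjusted p = 8.31e-05) and had −0.38 (SE 0.17, adjusted p = 0.126) in AKR/N. Tbpl1, a TBP-like factor of spermatids, fell with −1.06 and −0.70, and Taf7l rose with 0.83 and 1.11. Foxj1, the main activator of motile cilium genes, fell with −0.73 and −1.11. Rfx2, which acts on cilium genes in spermatids and was added after its values were seen, fell with −0.66 and −1.16.

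Markers of testis cell types were counted in the same way, and their part in the changes of the axoneme genes was not tested. The counts are to be read beside the shares of all genes at 24 h, 16.6% lower and 21.4% higher in C57BL/6 and 11.1% lower and 12.3% higher in AKR/N. Of 15 markers of pachytene spermatocytes, 10 fell and 1 rose at 24 h in C57BL/6, and 9 fell and 0 rose in AKR/N. Their summed signal was 34917 to 36832 in the C57BL/6 controls and 26583 to 27911 at 24 h, and in AKR/N 36463 to 37422 and 28602 to 29448. In C57BL/6, 4 of these markers had fallen at 10 h and 6 at 12 h, and in AKR/N 0 and 1. Of all genes, 5.19% and 9.38% were lower at these times in C57BL/6 and 1.19% and 3.2% in AKR/N. The pachytene marker Piwil1, which binds piRNAs, fell at 24 h with −2.01 and −0.52. Spag6l and Nme5 are on this list and that of the central pair, Tbpl1 and Mybl1 on this and that of transcription factors, and Ldhc on this and that of the fibres and sheath. Of 14 early meiotic markers, 3 fell and 0 rose in C57BL/6, and 2 fell and 2 rose in AKR/N. Of 15 markers of round spermatids, 1 fell and 6 rose in C57BL/6, and 0 fell and 3 rose in AKR/N. Of 14 markers of elongating spermatids, 0 fell and 3 rose in C57BL/6, and 0 fell and 1 rose in AKR/N, and their median change was 0.21 and −0.03. Their summed signal was 79656 to 84077 in the C57BL/6 controls and 95758 to 97696 at 24 h, and in AKR/N 84600 to 86071 and 82463 to 83660. Odf1, Smcp, Gapdhs, Oaz3 and Cabyr are on this list and that of the fibres and sheath, and Hook1 is on this list and that of transport. These lists are therefore not independent.

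The remaining lists held markers of spermatogonia and of cells outside the germ line. Of 13 Sertoli cell markers, 6 rose and 1 fell in C57BL/6, and 6 rose and 0 fell in AKR/N, with a summed signal of 11607 to 11873 in the C57BL/6 controls and 20017 to 20685 at 24 h, and of 13128 to 13799 and 18518 to 19132 in AKR/N. Of 14 macrophage and leukocyte markers 6 rose in C57BL/6 and 4 in AKR/N and 0 fell. Of 14 spermatogonia markers 4 rose and 1 fell in C57BL/6, and 3 rose and 0 fell in AKR/N. Of 8 Leydig cell markers 3 rose and 2 fell in C57BL/6, and 0 rose and 2 fell in AKR/N. Efferent ducts hold ciliated cells, and of 9 markers of the epididymis and efferent ducts tested, 3 fell in each strain, Wfdc15a, Slc34a2 and Foxj1, and 0 rose. Adam7, Cst11, Lcn12 and Lcn5, which mark the epididymis, were under the limit for dim genes, and Cfap126 is on this list and among the axoneme genes.

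**Figure D5:**
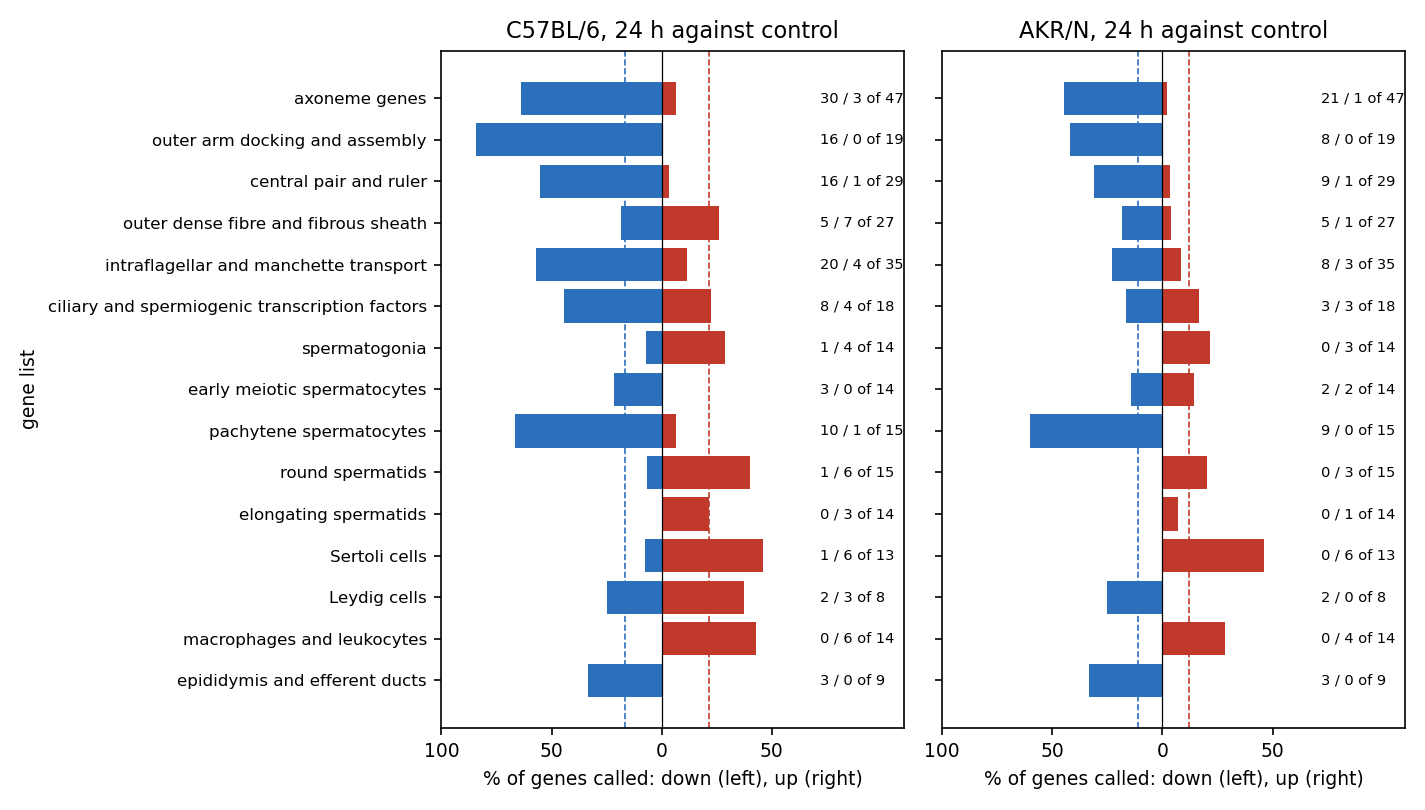
Percent of genes called lower (blue, left) and higher (red, right) at 24 h against control for the axoneme genes and each other list, in C57BL/6 and AKR/N; numbers give lower / higher of tested, and dashed lines mark the share of all genes. Of the axoneme genes 30 of 47 and 21 of 47 are lower, and of the pachytene markers 10 of 15 and 9 of 15, and 0 of 14 elongating spermatid markers are lower in either strain.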

How the data were processed

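Each deposited value is the signal of a probe set, an intensity on a linear scale, as read from the values themselves. None is negative, and the mean without the lowest and highest 2% of probe sets was 125.001 on every array. For these deposited signals, software and summary method were not given in the sources used here. In all, 45101 probe sets were listed. After 64 control probe sets were left out, 34945 were annotated to 1 gene, 932 to several and 9160 to none, and only the first kind was used. Of these, 34754 matched RefSeq by Entrez ID, which changed 0 symbols.

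Where several probe sets read a gene, that of highest mean log2(signal + 16) was kept. Genes were tested where the highest group mean reached the 40th percentile of all probe sets, a signal of 17.5. A limma 3.58.1 model (R 4.3.3, data.table version 1.17.8) with 1 mean for each of the 10 groups was fitted to all 20 arrays and 15762 genes, with empirical Bayes moderation (prior degrees of freedom 3.54, residual 10). It was tested on simulated data. Comparisons were 4 times against control in each strain, 24 h against 12 h, AKR/N against C57BL/6 controls, and the strain difference of the heat effect at each time. Alternatives were median centring, quantile normalization, pseudocounts of 1 and 64, no filter, the mean of a gene's probe sets, each strain's arrays alone, a replicate block, and leaving out each array.

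The genes, lists and tests were chosen with earlier results of these data known. Any axoneme gene could be named. Values on arrays were to be given for Akap3, Akap4 and, in each class, up to 3 genes with the smallest adjusted p at 24 h, up to 2 that were called in opposite directions or only rose, and up to 5 called in the strain difference at 24 h. Genes called at 8 h or between the controls were all to be named, and up to 3 genes of each other list, by smallest adjusted p. Other genes named, and the array values of Dnah5, Dnah9, Dnah11, Rsph14 and Tekt2 and the control signals of Dnah6, were chosen after their values were seen. The replicate numbers did not pair the arrays across groups: deviations from group means correlated with r from −0.277 to 0.298 over 45 group pairs (median −0.009, and 4 over 0.1). Plots were made with matplotlib 3.10.9 and pandas 2.3.3 in Python 3.11.15.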

Additional observations from a re-analysis of the deposited data

Results flagged for a closer look

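Dnah7a, an inner arm dynein heavy chain, had a heat effect at 24 h that differed between the strains by the test of the difference itself. The AKR/N change minus the C57BL/6 change was 1.03 (SE 0.21, limma adjusted p = 0.0338), and it was positive under every alternative run, but its call was lost with median centring, a pseudocount of 1, a replicate block and each fit that left out an array of the 4 groups compared or of AKR/N at 8 h. In AKR/N the gene started from a lower signal (56.8 and 42.1 in the controls, against 247 and 221 in C57BL/6), and a change on the log2(signal + 16) scale is understated at low signals. With a pseudocount of 1 the difference was 0.99 and was not called. Whether the only probe set of this gene reads both strains alike was not tested.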

How the results depend on the processing

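Across 28 alternatives, none turned the direction of a called change of an axoneme gene. At 24 h, 23 of 33 C57BL/6 calls and 5 of 22 AKR/N calls (Cfap161, Cfap65, Cfap70, Dnah2 and Rsph6a) held under all of them. With median centring the calls were 30 at 24 h in C57BL/6 (0 higher), 5 at 10 h and 7 for 24 h against 12 h in C57BL/6, 9 at 24 h (0 higher) and 0 at 10 h in AKR/N, 1 between the controls and 0 for the strain difference at 24 h. It shifted the median over all genes tested from 0.08 to −0.05 at 24 h and from 0.06 to −0.07 at 12 h in C57BL/6, and from −0.05 to 0.05 at 8 h in AKR/N. With each strain's arrays alone the counts were 0 at 10 h, 2 at 12 h, 10 at 24 h and 1 for 24 h against 12 h in AKR/N, and 7 for 24 h against 12 h in C57BL/6. With a pseudocount of 64 they were 9 at 12 h and 6 for 24 h against 12 h in AKR/N and 9 for the strain difference at 24 h, which was 0 with a pseudocount of 1 and 3 with quantile normalization or the mean of a gene's probe sets. The cause was not tested.

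With the replicate number as a block, though the numbers do not pair the arrays, calls were 31 at 24 h in C57BL/6, 17 at 24 h in AKR/N and 0 for the strain difference at 24 h. Leaving out 1 array at a time gave 1 to 10 calls at 10 h, 10 to 21 at 12 h, 25 to 34 at 24 h and 2 to 10 for 24 h against 12 h in C57BL/6. In AKR/N it gave 0 to 1, 1 to 6, 5 to 23 and 0 to 3, with 0 to 0 at 8 h in both strains. Between the controls it gave 1 to 3, and for the strain difference 0 to 5 at 24 h and 0 to 0 at the earlier times. A group that is left with 1 array is assumed to vary like the others. Genes near the limit for dim genes, such as Dnah5, can show only large changes.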
